A study of Mus musculus with 2 samples.

Results

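To follow the genes through which cells make cholesterol and fatty acids, 30 named genes were taken from a table of read counts for 49492 genes. The list was given by gene symbol, and all 30 symbols were found in the table. It holds 7 enzymes of the mevalonate pathway, 11 enzymes that lead from squalene to cholesterol, 5 genes of the SREBP factors and their control, and 7 genes of fatty acid synthesis. Basal cells of wild-type mammary glands, taken from adult females and sorted by FACS, were grown as primary cells in 3D matrix gel for 10 days, in a base medium with EGF and an insulin-containing supplement. The control culture had no further treatment, and the other received recombinant mouse TNF-α at 10 ng/mL. Each condition is 1 library, so no difference below has a replicate check, and an effect of TNF-α and a difference between single cultures cannot be told apart. Colonies of this kind start from sorted basal cells and hold both basal and luminal cells after culture. The series title names a microarray, and the table holds sequencing counts.

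Cholesterol is built from acetyl-CoA through mevalonate and squalene, and fatty acids are built from the same acetyl-CoA by carboxylation and chain extension. SREBP-2, encoded by Srebf2, drives mainly the sterol genes, and SREBP-1, encoded by Srebf1, drives mainly the fatty acid genes. Both are held in the endoplasmic reticulum by SCAP and INSIG proteins when sterols are plentiful, and move to the Golgi to be cut free when sterols are low. The activity of both factors is therefore set largely by cutting of the protein, which a transcript count does not show. In the mammary gland the same enzymes supply membranes for growing epithelium and, in luminal cells during lactation, milk fat.

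The control library held 44462275 counts and the TNF-α library 53487087, and a count of 10 equals 0.225 CPM and 0.187 CPM, respectively. The 8 markers of basal cells summed to 11771 CPM in the control and 10771 CPM with TNF-α, and 3 of the 8 had a ratio above 0. The keratin genes Krt5 and Krt14, at log2 ratios of 0.16 and -0.08, made up most of this sum. The contractile markers Oxtr, Cnn1, Myh11 and Acta2 were lower at -1.19, -0.74, -0.52 and -0.20. Mylk, also a contractile marker, was higher at 0.18 (7906 and 10722 counts), and Trp63 was at 0.03. All 10 luminal markers were lower with TNF-α, at log2 ratios from -1.54 (Pgr) to -0.10 (Krt8), and they summed to 3680 CPM in the control and 2611 CPM with TNF-α. The 6 adipocyte markers summed to 7.63 and 2.92 CPM, with Plin1 at 0 in both libraries and Adipoq, Cidec and Cfd at 0 with TNF-α. The 8 leukocyte markers summed to 8.32 and 6.54 CPM, with Cd3e at 0 in both libraries and Adgre1 at 0 in the control. The 4 endothelial markers summed to 6.57 and 6.32 CPM, with Emcn at 0 in the control, and the 6 fibroblast markers to 499 and 486 CPM. Of these 6, 4 had a ratio above 0, and Dcn was higher (184 and 582 counts, log2 ratio 1.39) where Col3a1 was lower (5628 and 4250 counts, -0.66). In bulk libraries, fewer cells of a type and less RNA per cell cannot be told apart.

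Most of the 30 genes were modestly higher in the TNF-α library and 7 were lower, and most of the gain in summed counts lay in the sterol enzymes. Over the 30 genes the log2 ratio, TNF-α over control, had a median of 0.25, against 0.0038 over all 20771 genes tested, those with 10 or more counts when the libraries were added. Of the 30 genes, 23 had a ratio above 0, a share of 76.7%, against 50.6% of all genes tested, and 7 had a ratio below 0, against 49.4%. No member was more than 2-fold higher or lower (0 of 30 in each direction). Over all genes tested, 8.56% were more than 2-fold higher and 6.62% more than 2-fold lower. Many of those genes have few counts. Among the 13609 genes with at least 200 counts, 546 were more than 2-fold higher and 390 more than 2-fold lower. More than 1.5-fold, 1 member was higher (Stard4) and 1 was lower (Tm7sf2), against 15.5% and 13.7% of all genes tested. The least counted member had 388 counts in all, and among the 13609 genes with at least 200 counts the background was 9.13% higher and 7.48% lower by this fold. By these ratios, without their intervals, all members other than Stard4 and Tm7sf2 differed by less than 1.5-fold. The sum of the 30 genes was 2323 CPM in the control and 2634 CPM with TNF-α.

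The 95% interval of each ratio was derived from the share of a gene's reads that came from the TNF-α library. It covers counting error only and leaves out the spread between cultures, because each condition is 1 library. Reads amplified by PCR without molecular identifiers are not independent molecules, so it may be too narrow even for counting error. By this measure 18 members lay above 0, 5 lay below 0 and 7 had intervals that held 0. Among the 13609 genes with at least 200 counts, 34.3% lay above 0 and 33.9% below 0. When the counts were halved, as they should be if both ends of each read pair were counted, the members again divided into 18, 5 and 7. With the counts as deposited, the intervals of Fdps, Cyp51, Scd1, Acat2, Fasn and Scap reached past the 1.5-fold line. That of Tm7sf2 reached back inside it.

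**Figure D1:**
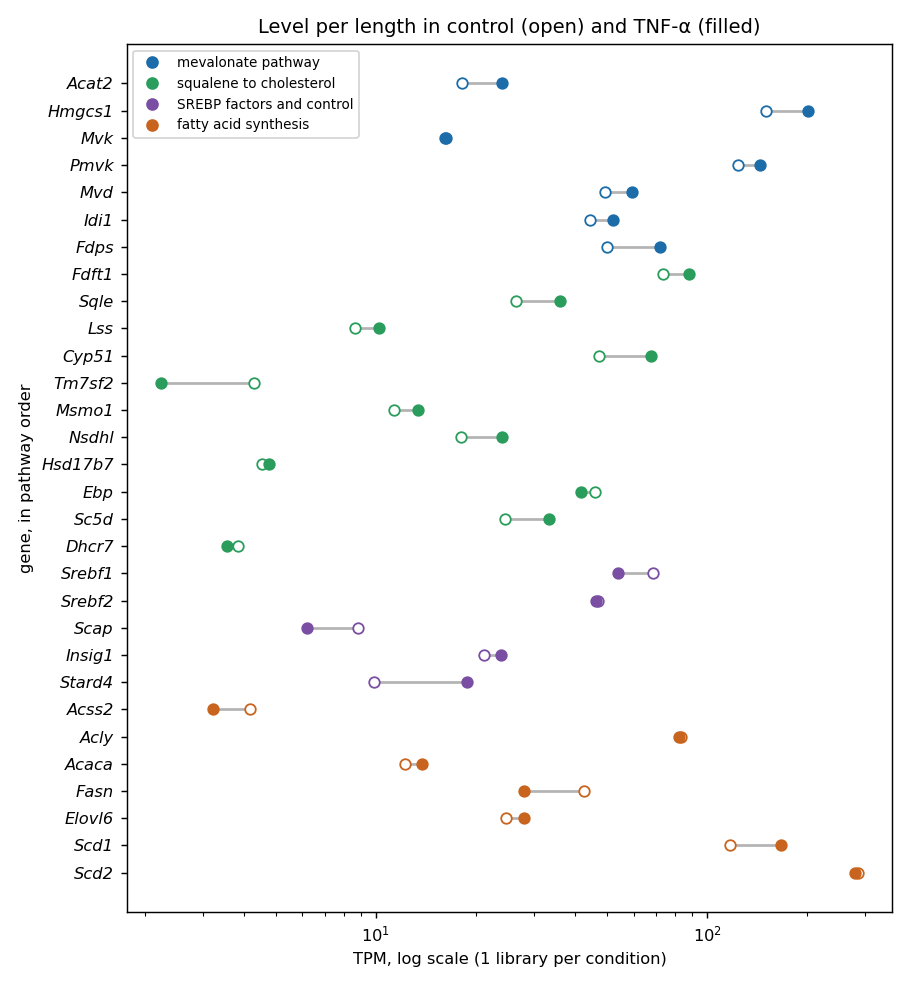
Level per length (TPM, log axis) of the 30 genes in pathway order, with the control library as an open circle and the TNF-α library as a filled one, 1 library per condition. Levels ran from 2.25 TPM (Tm7sf2 with TNF-α) to 285 TPM (Scd2 in the control), and the filled circle lies right of the open one in all 7 mevalonate genes, although for Mvk they nearly coincide.

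Levels between genes were compared per length, as TPM computed from the deposited exon lengths. The most abundant of the 30 in the control was the desaturase gene Scd2 at 285 TPM, followed by Hmgcs1 at 151 TPM, Pmvk at 124 TPM and Scd1 at 117 TPM. With TNF-α the order was Scd2 at 279 TPM, Hmgcs1 at 202 TPM, Scd1 at 167 TPM and Pmvk at 145 TPM, so Scd1 and Pmvk changed places. At the low end of the control were Dhcr7 at 3.83 TPM, Acss2 at 4.16 TPM, Tm7sf2 at 4.27 TPM and Hsd17b7 at 4.52 TPM. The TPM and the scaled counts use different totals, and for Acly, Srebf2 and Scd2 the TPM was slightly lower with TNF-α where the log2 ratio was slightly above 0.

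The mevalonate pathway turns acetyl-CoA into farnesyl diphosphate, the shared precursor of sterols, dolichol and prenyl groups. All 7 of its genes had a ratio above 0, with a median log2 ratio of 0.31, and together they summed to 442 CPM in the control and 585 CPM with TNF-α. Mvk, which encodes mevalonate kinase, was the only one whose interval held 0. The highest was Fdps, the farnesyl diphosphate synthase gene on chromosome 3 of GRCm38 (89093588 to 89101959, minus strand). It had 3307 counts in the control and 5903 with TNF-α, or 49.8 and 71.9 TPM. Its log2 ratio of 0.58 (95% interval 0.51 to 0.64) is a 1.49-fold difference, just under the 1.5-fold line. A limit for Fdps is that 26.7% of its exon bases are also exon of Gm43738 on the same strand, where reads cannot be assigned to one gene.

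Hmgcs1 encodes the synthase that makes HMG-CoA, an early intermediate of the pathway. It lies on chromosome 13 (119690462 to 119708086, plus strand) and had 7699 counts in the control and 12745 with TNF-α. Its log2 ratio was 0.47 (95% interval 0.43 to 0.51), the narrowest interval among the mevalonate genes because it has the most reads. Acat2, the cytosolic thiolase of the first step, had 731 and 1196 counts, which is a log2 ratio of 0.45 (95% interval 0.32 to 0.59). Of its 50-base sequences 39.1% also occur in its neighbour Acat3, which had a log2 ratio of 0.14, so the split of reads between both genes is uncertain. The kinase, decarboxylase and isomerase genes Pmvk, Mvd and Idi1 were closely grouped, with log2 ratios of 0.27, 0.31 and 0.27. Pmvk had 3352 counts in the control and 4842 with TNF-α, Mvd had 1448 and 2148, and Idi1 had 2460 and 3547. Mvk had 684 and 848 counts, for a log2 ratio of 0.05 (95% interval -0.10 to 0.20).

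Next, the genes after farnesyl diphosphate were examined. Of the 11 enzymes from squalene to cholesterol, 8 had a ratio above 0 and 3 below, with a median of 0.29. The highest was Cyp51, the lanosterol demethylase, on chromosome 5 (4081145 to 4104746, minus strand). It had 3294 counts in the control and 5823 with TNF-α, or 47.2 and 67.6 TPM, giving a log2 ratio of 0.56 (95% interval 0.50 to 0.62). Sqle, squalene epoxidase and a second control point of the pathway, had 2318 and 3906 counts, which is a log2 ratio of 0.49 (95% interval 0.42 to 0.57) on chromosome 15 (59315077 to 59331192, plus strand). Sc5d, a late sterol desaturase, had 1891 and 3174 counts, for a log2 ratio of 0.49. Nsdhl, a dehydrogenase that helps to remove methyl groups, had 813 and 1334 counts, giving a log2 ratio of 0.45. The levels of these 4 genes with TNF-α were all between 1.37-fold and 1.48-fold of the control.

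Fdft1, Lss and Msmo1 formed a lower group. Fdft1, the squalene synthase, had 3315 counts in the control and 4935 with TNF-α, which is a log2 ratio of 0.31, and 26.8% of its exon bases overlap Ctsb on the opposite strand. Lss, which closes squalene epoxide into lanosterol, had 1472 and 2144 counts, for a log2 ratio of 0.28. Msmo1, a methyl sterol oxidase, had 1100 and 1611 counts, giving a log2 ratio of 0.29. For Hsd17b7, a sterol ketone reductase with 364 and 475 counts, the interval held 0 (log2 ratio 0.12, 95% interval -0.08 to 0.33).

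The 3 genes below 0 were Tm7sf2, Ebp and Dhcr7. Tm7sf2, a sterol reductase, had 235 counts in the control and 153 with TNF-α, or 4.27 and 2.25 TPM. Its log2 ratio of -0.87 (95% interval -1.18 to -0.58), 1.83-fold lower, was the lowest of the 30, and it had the fewest reads. The gene lies on chromosome 19 (6062821 to 6068373, minus strand), and 15.3% of its exon bases are also exon of Vps51 on the same strand. The intervals of the isomerase gene Ebp (log2 ratio -0.10, 1672 and 1874 counts) and of Dhcr7 (log2 ratio -0.07, 352 and 402 counts), the reductase of the last step, held 0. Taking the 18 enzymes of both stages as a group, 15 had a ratio above 0 and the median was 0.30. Their reads summed to 819 CPM in the control and 1069 CPM with TNF-α, which is a log2 ratio of 0.38 (95% interval 0.37 to 0.40) for the sum. This interval covers counting error only, and genes with many reads weigh most in the sum.

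**Figure D2:**
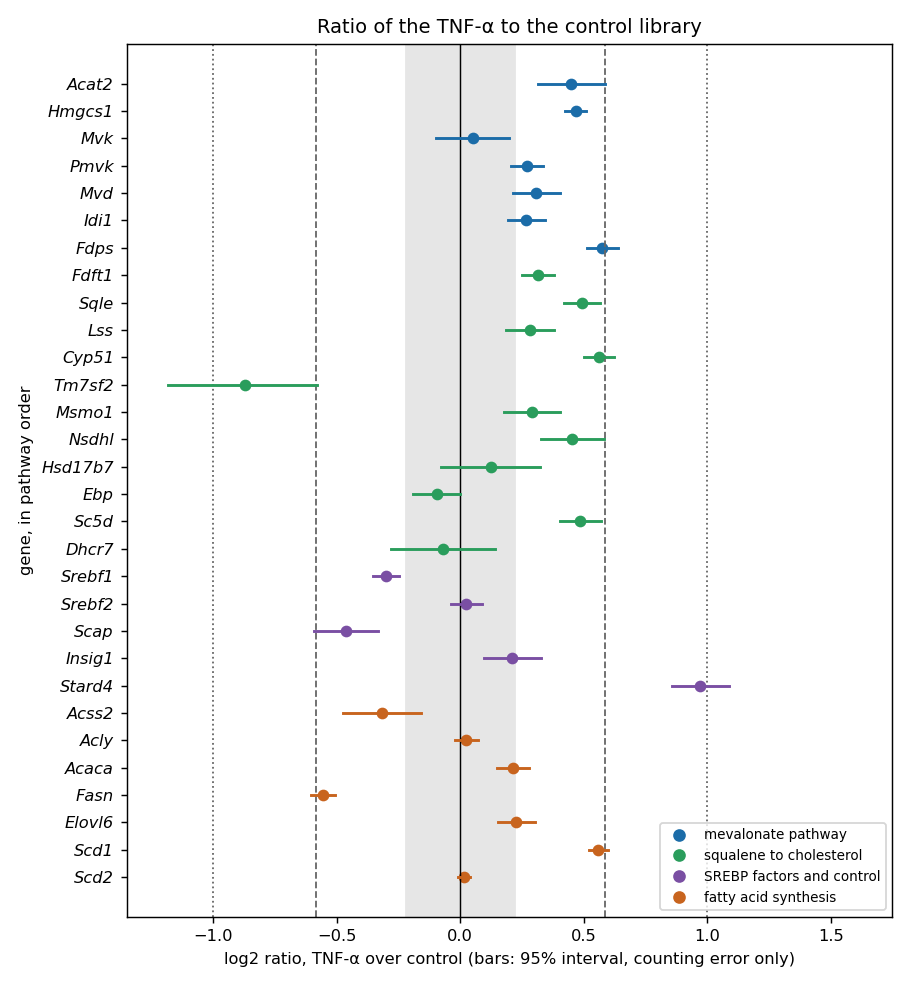
Log2 ratio of TNF-α to control for the 30 genes in pathway order, with bars for the 95% interval of counting error. The grey band runs from the lower to the upper quartile of the 13609 genes with at least 200 counts (-0.22 to 0.22), and dashed and dotted lines mark 1.5-fold and 2-fold. Most sterol enzymes lie to the right of the band, with Tm7sf2 far to the left, and Stard4 lies just inside the 2-fold line.

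The promoters of the sterol enzymes are the stretches on which SREBP acts together with NF-Y, a factor that binds the box CCAAT. RefSeq windows of 250 bases before to 50 bases after the transcription start (GRCm38.p6) were found for 24 of the 30 genes, 4 of them with several windows, and a gene was counted as holding a motif if any of its windows did. No window was used for Fdft1, Fdps, Scd1, Scd2, Sqle and Stard4, so 4 of the 5 highest ratios are missing here. Of the 30 windows, 18 were built on a RefSeq start within 50 bases of the 5′ end of the gene in the deposited table. The CCAAT box, searched on both strands, occurred in 20 of the 24 genes (83.3%), and in 42.8% of the 9610 genes with a window and at least 200 counts. At least 2 CCAAT boxes were present in 10 of the 24 (41.7%), and in 16.5% of those 9610 genes. A form of the sterol regulatory element with the letters TCACNCCAC, searched on both strands, occurred in 1 of the 24 (Hmgcs1), and in 1.40% of those genes. GGGCGG, the letters of the GC box, occurred in 20 of the 24 (83.3%) and in 69.3% of those genes, and the E-box CACGTG occurred in 5 of the 24 and in 11.6%. No overlap between these motifs was removed. Among these 24 genes the median log2 ratio was 0.20 in the 10 members with at least 2 boxes, 0.12 in the 10 with 1 box and 0.22 in the 4 with none (Acaca, Acat2, Elovl6 and Scap). These medians do not compare like windows. The only window of Acaca is built on a start 65766 bases inside the deposited gene. Dhcr7 holds 2 boxes only in a window built 7069 bases inside, and its windows built 22 and 254 bases inside hold 0.

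Windows are shown for Hmgcs1, the one with the sterol element, and for Cyp51, the highest of the 30 with a window. They are also shown for the 2 lowest of the 30, Tm7sf2 and Fasn, which carry the CCAAT box as well. Capitals mark CCAAT or its reverse ATTGG, and in Hmgcs1 also TCACCCCAC. In Fasn a CCAAT and an ATTGG overlap.
Hmgcs1 (chr13:119690101-119690400, plus strand): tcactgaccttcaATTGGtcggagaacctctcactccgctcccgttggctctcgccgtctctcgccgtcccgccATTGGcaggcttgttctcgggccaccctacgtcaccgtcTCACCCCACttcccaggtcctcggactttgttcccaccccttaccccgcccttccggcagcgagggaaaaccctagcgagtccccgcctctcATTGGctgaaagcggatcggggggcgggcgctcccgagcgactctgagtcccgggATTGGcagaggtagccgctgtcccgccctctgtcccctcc
Cyp51 (chr5:4104648-4104947, minus strand): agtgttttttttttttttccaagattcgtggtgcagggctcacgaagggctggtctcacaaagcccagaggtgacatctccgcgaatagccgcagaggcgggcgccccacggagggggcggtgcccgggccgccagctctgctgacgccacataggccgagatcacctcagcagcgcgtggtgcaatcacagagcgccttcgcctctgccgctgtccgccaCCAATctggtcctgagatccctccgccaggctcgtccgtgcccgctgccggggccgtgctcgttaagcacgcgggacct
Tm7sf2 (chr19:6067801-6068100, minus strand): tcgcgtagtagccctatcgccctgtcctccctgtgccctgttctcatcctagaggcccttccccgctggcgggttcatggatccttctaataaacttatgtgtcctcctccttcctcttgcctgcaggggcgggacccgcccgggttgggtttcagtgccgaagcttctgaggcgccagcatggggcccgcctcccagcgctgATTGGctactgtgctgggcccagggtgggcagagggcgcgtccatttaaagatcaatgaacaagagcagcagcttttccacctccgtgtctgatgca
Fasn (chr11:120824498-120824797, minus strand): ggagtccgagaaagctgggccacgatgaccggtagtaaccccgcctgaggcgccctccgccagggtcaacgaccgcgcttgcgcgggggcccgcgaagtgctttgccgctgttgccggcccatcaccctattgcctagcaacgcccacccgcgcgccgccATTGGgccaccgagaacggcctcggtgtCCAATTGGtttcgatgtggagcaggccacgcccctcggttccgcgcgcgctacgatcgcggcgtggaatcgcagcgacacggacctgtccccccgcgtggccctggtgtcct
Positions are counted from the RefSeq start, which for Fasn is the 5′ end of the deposited gene, for Cyp51 lies 49 bases inside it, for Tm7sf2 523 bases inside it and for Hmgcs1 111 bases upstream of it. In Hmgcs1 the sterol element begins 137 bases before the start, and an ATTGG begins 176 bases before it. In Cyp51 the box begins 29 bases before the start, in Tm7sf2 47 bases before it and in Fasn 90, 62 and 59 bases before it. Thus genes with ratios of 0.47, 0.56, -0.87 and -0.56 all hold the box in these windows, and a match of letters is not a bound site.

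The 5 genes of the SREBP factors and their control were examined next. Their median log2 ratio was 0.02 (0.18 after correction for GC content and length). Of the 5, 3 lay above 0, against 50.6% of all genes tested. Their reads summed to 286 CPM in the control and 278 CPM with TNF-α, a log2 ratio of -0.04 for the sum. Srebf2 had 3699 counts in the control and 4505 with TNF-α, for a log2 ratio of 0.02 (95% interval -0.04 to 0.09). Srebf1 had 6092 and 5921 counts, or 68.5 and 53.8 TPM, giving a log2 ratio of -0.30 (95% interval -0.35 to -0.25), 1.23-fold lower. Counts per gene do not separate the SREBP-1a and SREBP-1c transcripts of Srebf1. Scap, the escort protein that carries both factors, had 1037 and 901 counts, which is a log2 ratio of -0.46 (95% interval -0.59 to -0.33), 1.38-fold lower. In Scap 13.2% of the exon bases overlap 5830462I19Rik on the opposite strand. The transcripts of the factors and of their escort thus had ratios from -0.46 to 0.02, while 15 of the 18 sterol enzymes lay above 0. When the ratios were corrected for GC content and length, the value was 0.18 for Srebf2, -0.13 for Srebf1 and -0.27 for Scap.

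Insig1, which retains SCAP and is itself a target of SREBP, had 1037 counts in the control and 1438 with TNF-α, for a log2 ratio of 0.21 (95% interval 0.10 to 0.33). Stard4, a carrier that moves cholesterol between membranes and is also a target of SREBP-2, had the largest ratio of the 30. It lies on chromosome 18 (33199355 to 33213862, minus strand) and had 872 counts in the control and 2049 with TNF-α, or 9.88 and 18.8 TPM. Its log2 ratio was 0.97 (95% interval 0.86 to 1.09), 1.96-fold higher, so its interval crosses the 2-fold line. No exon base of Stard4 is shared with another gene of the table.

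The fatty acid genes were mixed. Of 7, 5 had a ratio above 0 and 2 below, with a median of 0.02 (0.08 after correction for GC content and length) and a sum of 1218 CPM in the control and 1287 CPM with TNF-α. Fasn, the fatty acid synthase that builds palmitate, had 7346 counts in the control and 5982 with TNF-α, or 42.5 and 28.0 TPM. Its log2 ratio was -0.56 (95% interval -0.61 to -0.51), 1.47-fold lower, on chromosome 11 (120805846 to 120824547, minus strand). Acss2, which makes acetyl-CoA from acetate, had 667 and 641 counts, giving a log2 ratio of -0.32 (95% interval -0.48 to -0.16), and 9.12% of its exon bases overlap genes on the opposite strand. Acly, which makes cytosolic acetyl-CoA from citrate, had 6947 and 8463 counts, which is a log2 ratio of 0.02 (95% interval -0.02 to 0.07). Acaca, the carboxylase of the committed step, had 3308 and 4595 counts, for a log2 ratio of 0.21 (95% interval 0.15 to 0.28). Of its 50-base sequences 30.4% also occur in transcripts of other genes. Elovl6, which lengthens palmitate, had 2504 and 3512 counts, giving a log2 ratio of 0.23 (95% interval 0.15 to 0.30). Thus the carboxylase and synthase genes, which act in sequence, had ratios of opposite sign.

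Scd1 and Scd2 encode desaturases that put the first double bond into stearate and palmitate. Scd1, on chromosome 19 (44394451 to 44407709, minus strand), had 8952 counts in the control and 15796 with TNF-α, which is a log2 ratio of 0.56 (95% interval 0.52 to 0.60), 1.47-fold higher. Scd2, which lies nearby on the same chromosome (44293676 to 44306864, plus strand), had 24548 and 29692 counts, for a log2 ratio of 0.01 (95% interval -0.01 to 0.04). The counting intervals of both paralogs do not overlap. Scd1 made up a larger part of the pair with TNF-α (167 TPM against 279 TPM) than in the control (117 TPM against 285 TPM). Shared 50-base sequences made up 4.56% of Scd1 and 3.97% of Scd2. The other paralogs Scd3 and Scd4 had 78 and 34 counts in the control and 59 and 19 with TNF-α.

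**Figure D3:**
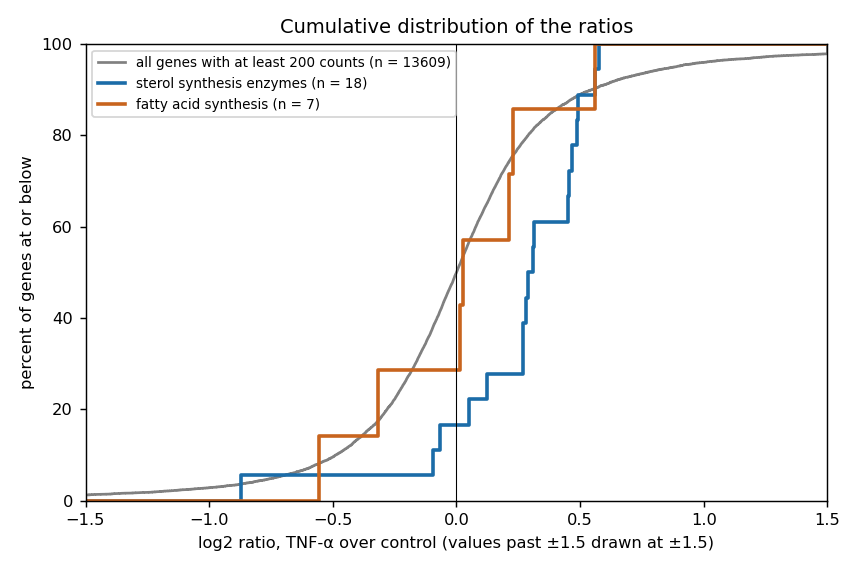
Cumulative percent of genes at or below each log2 ratio of TNF-α to control, for the 13609 genes with at least 200 counts (grey), the 18 sterol synthesis enzymes (blue) and the 7 fatty acid genes (orange). The blue line crosses 50% near 0.30, to the right of the grey line at 0, and the orange line crosses near 0.02.

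To set these genes in the rest of lipid metabolism, 7 lists of other genes were read from the same libraries. The list of other sterol synthesis, uptake and SREBP control genes had 14 of 15 genes with at least 10 counts, a median log2 ratio of 0.09 (0.14 after correction for length alone), and 9 ratios above 0. By the 2-fold line 1 was higher and 0 lower, against 8.56% and 6.62% of all genes tested. The highest was Tmem97, a sterol-binding membrane protein of the endoplasmic reticulum, with 62 counts in the control and 154 with TNF-α, giving a log2 ratio of 1.03 (95% interval 0.62 to 1.5). Lrp8, a lipoprotein receptor that binds apolipoprotein E and is named after its values were seen, had 470 and 1026 counts, which is a log2 ratio of 0.86 (95% interval 0.71 to 1.03), 1.82-fold higher. The lowest among well-counted genes was Insig2, which holds the SCAP and SREBP complex in the endoplasmic reticulum, at -0.24 with 1189 and 1206 counts (95% interval -0.36 to -0.12). The other 11 with at least 10 counts ranged from -0.24 for Erlin1 to 0.26 for Rnf139.

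In the list of sterol efflux, storage and oxysterols the median log2 ratio was -0.16, with 6 of 15 above 0. It was -0.48 when genes under 1 CPM in both libraries were left out and -0.07 after correction for GC content and length. By the 2-fold line 2 were higher (Ch25h and Cyp7b1) and 2 lower (Apoe and Lipa), against 8.56% and 6.62% of all genes tested. Abca1, the transporter that exports cholesterol and is a target of the oxysterol receptors LXR, had 7370 counts in the control and 5672 with TNF-α, which is a log2 ratio of -0.64 (95% interval -0.69 to -0.59), 1.56-fold lower. Apoe, an apolipoprotein, had 173650 and 86504 counts, for a log2 ratio of -1.27, and was named after its values were seen. The lowest was Lipa, the lysosomal acid lipase that frees cholesterol from esters, at -1.31 with 971 and 468 counts (95% interval -1.47 to -1.15). Mylip, a ubiquitin ligase gene and LXR target, had 1574 and 1977 counts, giving a log2 ratio of 0.07 (95% interval -0.03 to 0.17). Cyp7b1, an oxysterol hydroxylase, had 95 and 293 counts, which is a log2 ratio of 1.35 (95% interval 1.03 to 1.71). Ch25h, which makes an oxysterol that blocks SREBP processing, had 2 counts in the control and 21 with TNF-α, for a log2 ratio of 2.34 with a counting interval from 1.10 to 6.27. With so few reads, its level was 0.797 TPM with TNF-α.

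**Figure D4:**
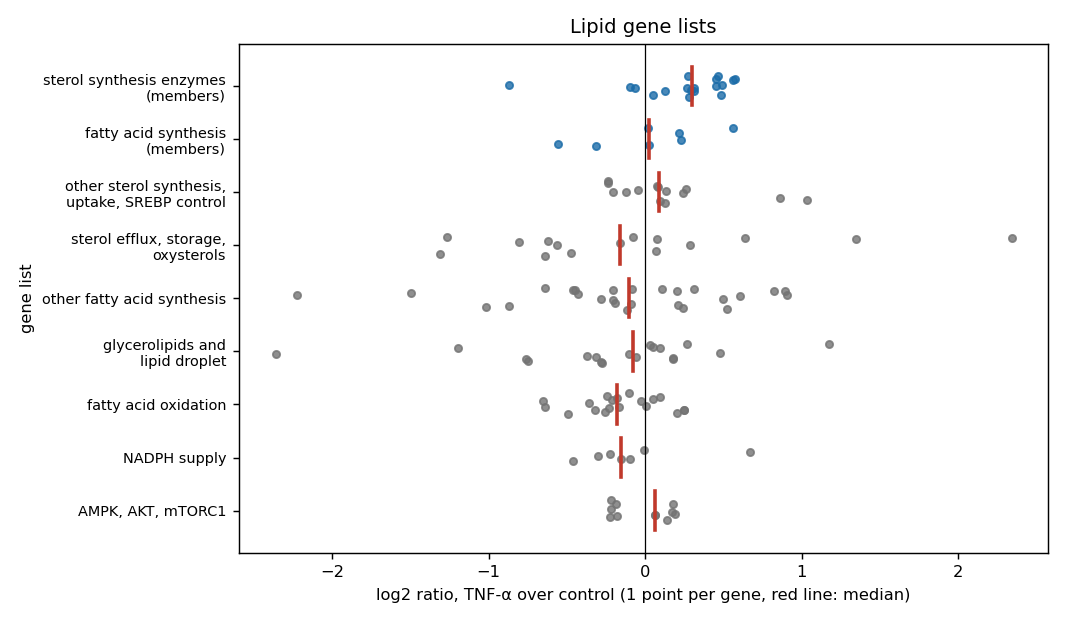
Log2 ratio of TNF-α to control for each gene of the lipid lists, 1 point per gene with at least 10 counts and a red line at each list's median. The sterol enzymes have a median of 0.30, the genes of fatty acid oxidation -0.18 and those of NADPH supply -0.15.

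Among other genes of fatty acid synthesis, elongation and desaturation the median log2 ratio was -0.10, with 11 of 26 above 0, 0 more than 2-fold higher and 3 more than 2-fold lower (Elovl4, with Elovl3 and Scd4 named after their values were seen). The median was 0.010 when genes under 1 CPM in both libraries were left out, so its sign depends on the rarely counted genes. Fads2, the desaturase that starts the polyunsaturated series, was the highest with 3333 counts in the control and 7477 with TNF-α, giving a log2 ratio of 0.91 (95% interval 0.85 to 0.97), 1.87-fold higher. Elovl4, which makes very long chains, was the lowest of the well-counted genes with 820 and 347 counts, which is a log2 ratio of -1.49 (95% interval -1.69 to -1.32). Thrsp, a lipogenic factor, had 40 and 39 counts, too few to place its ratio (-0.28, 95% interval -0.97 to 0.38). For glycerolipid and lipid droplet genes the median was -0.08 (-0.14 after correction for length alone), with 8 of 18 above 0, 1 more than 2-fold higher and 2 more than 2-fold lower. The highest was Dgat2, which makes triglyceride, at 1.17 with 120 and 327 counts (95% interval 0.88 to 1.5). The lowest of the well-counted genes was lipoprotein lipase, Lpl, at -1.20 with 715 and 372 counts (95% interval -1.39 to -1.02). The third gene past 2-fold was Pparg, with 102 counts in the control and 22 with TNF-α, named after its values were seen. Beside the counts past 2-fold in both lists, 8.56% of all genes tested were more than 2-fold higher and 6.62% more than 2-fold lower.

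For fatty acid oxidation the median log2 ratio was -0.18, with 6 of 19 above 0. By the 2-fold line 0 were higher and 0 lower, against 8.56% and 6.62% of all genes tested. Cpt1a, which admits fatty acids to the mitochondrion, was the lowest of the well-counted genes with 5900 counts in the control and 4499 with TNF-α, for a log2 ratio of -0.65 (95% interval -0.71 to -0.59). Ehhadh, a peroxisomal bifunctional enzyme, was the highest at 0.25 with 162 and 231 counts, and its interval held 0 (95% interval -0.04 to 0.55). Genes of NADPH supply had a median of -0.15 (-0.097 after correction for GC content and length). Of the 7, 1 lay above 0, against 50.6% of all genes tested. That gene was Idh1, cytosolic isocitrate dehydrogenase, with 3673 and 6985 counts and a log2 ratio of 0.67 (95% interval 0.61 to 0.73). Me1, malic enzyme, was lowest at -0.46 with 3320 and 2891 counts (95% interval -0.53 to -0.39). The AMPK, AKT and mTORC1 genes upstream of SREBP had a median of 0.06 (0.15 after correction for GC content and length), with 6 of 11 above 0. By the 1.5-fold line 0 were higher and 0 lower, against 9.13% and 7.48% of the genes with at least 200 counts. The lowest was the AMPK subunit gene Prkab2 at -0.23 with 557 and 570 counts (95% interval -0.40 to -0.06), and the highest was the subunit gene Prkaa2 at 0.19 with 468 and 641 counts (95% interval 0.02 to 0.37).

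The 10 luminal markers and 5 of the 8 basal markers (Oxtr, Cnn1, Myh11, Acta2 and Krt14), given above, were lower with TNF-α. The basal markers Krt5, Mylk and Trp63 were higher, at 0.16, 0.18 and 0.03. The sums of the adipocyte, leukocyte, endothelial and fibroblast markers were lower. Among the lipid genes named above, Fasn, Srebf1, Scap, Apoe, Lpl and Abca1 were lower, and Scd1, Fads2, Elovl6 and Acaca were higher. The part of these cell types in the ratios of the lipid genes was not tested. In the control, the adipocyte markers Adipoq, Cidec, Cfd and Plin1 had 2, 2, 3 and 0 counts. The other two, Fabp4 and Lep, had 206 and 127 counts in the control and 146 and 10 with TNF-α.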

How the data were processed

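Per the labels, RNA of cultured mouse mammary basal cells was sequenced after a SMARTer mRNA library preparation, and the labels name GRCm38 (mm10). The authors deposited whole-number read counts per gene, not normalized, with exon coordinates and summed exon length in bases. The aligner, counter, annotation and strand setting are not given in the sources used here. All 30 genes lay on the same chromosome in GENCODE M21 (GRCm38), 25 with the same start and end. These counts were scaled by TMM in edgeR (version 4.0.16, R 4.3.3) over genes with at least 10 counts, and the scaled size of the TNF-α library was 1.2 times that of the control. Log2 ratios of CPM used a prior count of 2, so ratios of low genes are understated, and 95% Clopper-Pearson intervals of the share of reads were turned into ratios. With 1 library per condition no quasi-likelihood model in edgeR has residual degrees of freedom, so no p-value is given. The ratios and intervals were run on simulated counts that held counting error only. Such counts cannot show how the intervals fare with spread between cultures. Given with counts and interval were the 5 lowest and 5 highest members with at least 200 counts, and the lowest and highest gene of each other list with that many, plus Abca1, Ch25h, Mylip, Thrsp, Fads2 and Cpt1a. Some genes of these pathways are not reported here and were left out of the lists. The members and lists were chosen with earlier results of these data known. Shared sequences of 50 bases were counted in GENCODE M21 transcripts. Python 3.11.15, scipy 1.17.1, statsmodels 0.14.6 and DESeq2 1.42.0 (size factors, as an alternative) were used.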

Additional observations from a re-analysis of the deposited data

How the results depend on the processing

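No paired analysis was possible because there were no replicates, which also means that none was left out. Under 12 alternatives (other scalings, filters, prior counts and depths, and corrections for gene properties) and 2 added after seeing the data, the median log2 ratio of the 30 genes stayed between 0.23 and 0.28. Correction by lowess (span 0.3) for gene length moved it to 0.28, with 1 gene more than 2-fold higher (Stard4) and 4 more than 1.5-fold higher. Correction for GC content and length gave 2 genes more than 1.5-fold higher. Leaving out Acat2, Scd1 and Scd2, chosen after seeing the data, gave a median of 0.23. The cause of the changes under the corrections was not tested. No member changed sign under 13 alternatives, and 23 had a ratio above 0 under each. The median of the other fatty acid synthesis genes changed sign, to 0.010, with genes of at least 1 CPM only, where fewer genes were read. Under the GC and length correction Fasn moved to -0.38. Of 622 values of single genes under alternatives, 608 stayed within the counting interval and 14 moved outside it. All 14 arose under the corrections for GC content and length or for length alone, among them values of Srebf1, Srebf2, Scap and Fasn. Of 143 list medians, 124 moved by no more than the half-width of the interval of the summed reads, 18 moved further with the sign unchanged and 1 reversed. Depth limited Ch25h and Thrsp, and the spread between cultures was not measured.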

Other observations

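Srebf2 hosts the miRNA gene Mir33 in an intron. That row held 17 counts in the control and 9 with TNF-α, and a library of mRNA does not measure the mature miRNA.

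The 30 genes had a median exon length of 4928 bases against 3159 bases for all genes tested, and a median GC content of 49.3% against 49.7%.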
